A study of Mus musculus with 8 samples.

Results

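Hif1a, Vegfa, Pgf and Kdr are 4 of the 6370 named genes on these arrays, each measured by 1 probe. Together they cover an oxygen-regulated transcription factor subunit, and 2 ligands and a receptor of blood vessel growth. They were found by their gene symbols in the probe annotation and were chosen by name with their differences between stimulated and contralateral muscle on these same arrays already known. Their differences between the legs are therefore a description of these arrays, and a threshold they pass is no independent evidence.

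HIF-1 alpha, the product of Hif1a, is the oxygen-regulated subunit of a transcription factor that is degraded when oxygen is ample and, when oxygen falls, pairs with ARNT and binds hypoxia response elements in its target genes. Vegfa encodes the main growth factor for vascular endothelium and is one of those targets, and in skeletal muscle it is made by the fibres themselves as well as by other cells. Pgf encodes placental growth factor, a ligand of the same family that binds the receptor FLT1, whereas Kdr encodes VEGF receptor 2, the endothelial receptor through which VEGF-A drives endothelial growth and permeability. Contracting muscle is a classical setting in which Vegfa transcript increases, ahead of capillary growth.

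The muscle is the EDL (extensor digitorum longus), which is built mainly of fast fibres, and it came from 4 Swiss Webster mice numbered 183, 197, 438 and 440 (labelled male, except that 1 of the 8 labels leaves the sex out). In each mouse 1 leg was made to contract for 4 h through its sciatic nerve, and the EDL of that leg (stimulated, 4 arrays) is compared with the unstimulated EDL of the opposite leg (contralateral, 4 arrays). The control muscle thus shares the animal and whatever circulates in it. Whole muscle RNA was used, so fibres, vessels and other cells are measured together, and fewer cells of a type and less RNA per cell cannot be told apart. Values are intensities on a linear scale as the authors normalized them, with array medians of 0.90 to 0.94 units and 10367 to 10474 probes with a value per array. The number of arrays limits the precision. The 8 measured markers of fast fibres were all above the floor of 0.0937 units on every array, as most values of any probe are. Their lowest value was 265.6 units, for Ckm in the stimulated muscle of mouse 440, far above the array medians. Markers of slow fibres or other tissues were not set against them.

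The windows just before the transcription start of the 4 genes are shown because HIF-1 binds a core of ACGTG or GCGTG and 3 of these genes stand beside its own subunit here. Each line gives 250 bases of C57BL/6J reference sequence, 5′ to 3′ on the gene's strand, from RefSeq on GRCm38.p6 and ending at the base before the outermost listed start. Capitals mark either core on either strand, so that a core on the opposite strand reads as CACGT or CACGC.
Hif1a (chr12:73907617-73907866, plus strand): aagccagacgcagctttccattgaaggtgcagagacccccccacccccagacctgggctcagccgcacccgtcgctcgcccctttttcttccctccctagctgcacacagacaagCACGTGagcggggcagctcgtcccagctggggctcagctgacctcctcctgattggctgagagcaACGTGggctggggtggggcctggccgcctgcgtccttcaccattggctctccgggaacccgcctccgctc
Vegfa (chr17:46032378-46032627, minus strand): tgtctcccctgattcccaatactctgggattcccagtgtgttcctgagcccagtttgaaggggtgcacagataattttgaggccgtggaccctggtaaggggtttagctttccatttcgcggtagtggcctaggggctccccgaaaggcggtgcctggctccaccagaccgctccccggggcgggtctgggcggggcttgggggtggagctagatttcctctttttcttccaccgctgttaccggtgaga
Pgf (chr12:85177314-85177563, minus strand): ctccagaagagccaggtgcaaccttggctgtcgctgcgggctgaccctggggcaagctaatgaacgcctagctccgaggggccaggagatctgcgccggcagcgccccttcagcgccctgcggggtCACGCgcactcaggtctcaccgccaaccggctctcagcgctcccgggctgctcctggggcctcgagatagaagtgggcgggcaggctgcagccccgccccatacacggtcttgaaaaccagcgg
Kdr (chr5:75978456-75978705, minus strand): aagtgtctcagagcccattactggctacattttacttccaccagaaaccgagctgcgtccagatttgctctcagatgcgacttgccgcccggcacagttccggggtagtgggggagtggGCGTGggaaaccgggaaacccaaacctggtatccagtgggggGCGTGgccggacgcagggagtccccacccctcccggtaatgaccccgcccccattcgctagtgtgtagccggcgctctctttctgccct
The Hif1a window held 3 matches to ACGTG, of which 2 overlap as the palindrome CACGTG at 135 to 130 bases before the start, and the third lies 70 to 66 bases before it. Kdr had 2 matches to GCGTG and Pgf had 1, on the opposite strand, while these letters are not in the Vegfa window. Of all 32851 promoter windows of this length in the table, 16.6% held ACGTG, 28.2% held GCGTG and 38.6% held at least 1 of them. The AP-1 motif TGANTCA, searched on both strands, was in none of the 4 windows and in 6.7% of all windows. A match describes the letters alone, and elements farther from the start were not searched.

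Transcripts of all 4 genes were higher in the stimulated muscle of every mouse, against 8.45% of probes with complete values that were higher in 4 of 4 mice. The mean difference was 4.04-fold for Hif1a, 3.69-fold for Pgf, 2.31-fold for Vegfa and 1.54-fold for Kdr, as geometric means over the mice. In the limma fit across all probes, 2 of the 4 genes, Hif1a and Pgf, were past an adjusted p of 0.05, where 1.11% of all 10406 probes were called higher and 0.231% lower. Each was past it in 11 of 17 settings: both missed it without mouse 183, without the block for mouse, with a floor at the 20th percentile, without moderation and in mice 183 and 197 alone, Hif1a also without the intensity trend, and Pgf also in mice 438 and 440 alone. Vegfa was past it in 1 of 17 settings, after cyclic loess, and Kdr in 0. Since the genes were chosen with this contrast known, nothing is read from these counts. Over all tested probes the median log2 change was -0.14, so the 4 changes lie 0.14 further from that median than from 0.

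Hif1a had intensities of 2.22, 8.04, 2.17 and 6.82 in the contralateral muscles of mice 183, 197, 438 and 440. The stimulated muscles of the same mice had 13.6, 16.7, 15.6 and 19.9. Every stimulated value lay above every contralateral one, as for 1.56% of probes with complete values. The folds within a mouse were 6.13, 2.08, 7.19 and 2.92, and the mean log2 change was 2.02 ± 0.86 (SD, n = 4 mice). The stimulated muscles differed among themselves by no more than 1.46-fold, but the contralateral muscles by 3.70-fold. The 2 smaller folds belonged to mice 197 and 440, whose contralateral values were the high ones. On the log2 scale the SD over mice was 1.02 in contralateral and 0.23 in stimulated EDL.

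Vegfa had contralateral intensities of 9.02, 12.6, 30.5 and 15.2 in mice 183, 197, 438 and 440 and stimulated intensities of 30.6, 19.7, 45.7 and 54.1. The groups overlapped, because the contralateral muscle of mouse 438 was level with the stimulated muscle of mouse 183 and above that of mouse 197. The folds fell into a higher pair, 3.40 in mouse 183 and 3.57 in mouse 440, and a lower pair, 1.56 in mouse 197 and 1.50 in mouse 438. The mean log2 change was 1.21 ± 0.69 (SD, n = 4), and it was 1.20 in mice 183 and 197 and 1.21 in mice 438 and 440.

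Pgf was dimmer, with contralateral intensities of 0.274, 0.637, 0.426 and 1.08 and stimulated intensities of 0.895, 2.80, 1.23 and 4.78 in the same order of mice. All 8 values stood above the floor, but the stimulated muscle of mouse 183 lay below the contralateral muscle of mouse 440, so the groups overlapped. The folds were 3.26, 4.40, 2.90 and 4.45, the narrowest range in proportion after Kdr. The mean log2 change was 1.88 ± 0.31 (SD, n = 4). Because the probe is dim, a pseudocount of 0.5 units in place of the floor lowered this change to 1.26.

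Kdr differed least between the legs. Its contralateral intensities were 12.2, 5.51, 10.7 and 3.59 and its stimulated intensities 21.2, 6.81, 15.1 and 6.66 in mice 183, 197, 438 and 440. The folds were 1.75, 1.23, 1.42 and 1.85, with a mean log2 change of 0.63 ± 0.27 (SD, n = 4). The difference between the mice was larger than that between the legs, since the contralateral muscles spanned 3.38-fold and the stimulated muscles 3.19-fold.

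**Figure D1:**
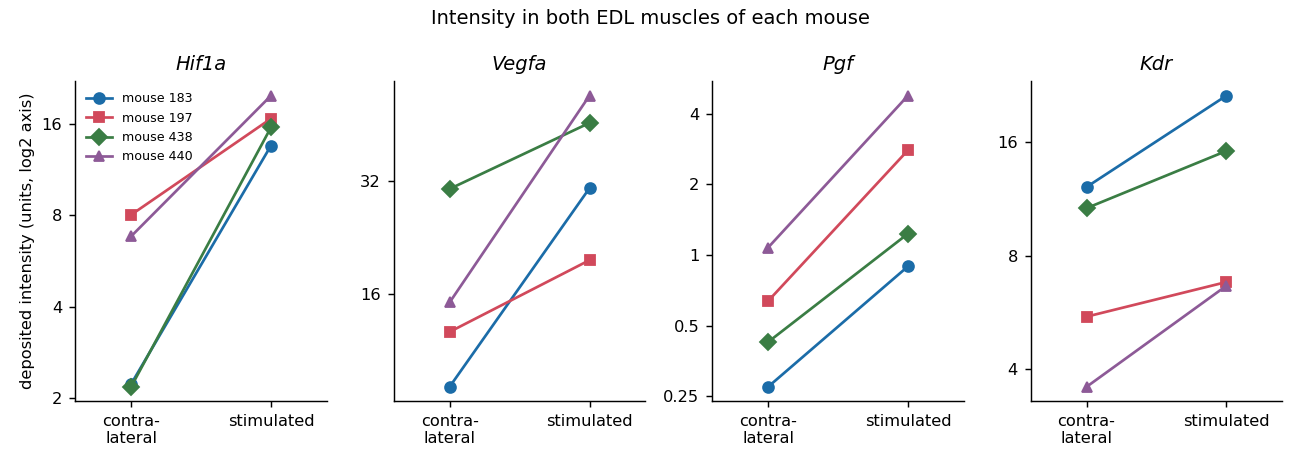
Deposited intensity (log2 axis) of Hif1a, Vegfa, Pgf and Kdr in the contralateral and stimulated EDL of each mouse, 1 line per mouse. All 16 lines go up; the stimulated Hif1a values draw together between 13.6 and 19.9, while the lines of Pgf and Kdr keep the order of the mice.

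The order of the mice was the same in both legs for Pgf and for Kdr, and ran the opposite way for these 2 genes. Pgf was highest in mouse 440, then 197, 438 and 183, in contralateral and in stimulated muscle alike. Kdr was highest in mouse 183, then 438, 197 and 440, also in both. For Vegfa the order changed, from mouse 438 as the highest contralateral muscle to mouse 440 as the highest stimulated one. Hif1a had mouse 197 highest among contralateral and mouse 440 highest among stimulated muscles. With 4 mice whose legs share an animal, these orders are a description. Mice 183 and 197 also differed from mice 438 and 440 in which probes lacked values, with 56 probes missing throughout the former and 25 throughout the latter, and neither order follows that split. The mean log2 changes in the former and the latter mice were 1.84 and 2.19 for Hif1a, 1.92 and 1.84 for Pgf, and 0.55 and 0.70 for Kdr.

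The genes most like each of the 4 over the 8 arrays were ranked by Pearson correlation of log2 intensity, among 5176 probes with a gene symbol and no value at the floor. The arrays share mice in pairs, and a common difference between legs raises all such values. Hif1a was most like Eng, an endothelial co-receptor for TGF-beta family ligands (r = 0.94), Tnfaip2 (0.94) and the endothelial transcription factor Sox17 (0.93). Their log2 changes, which the choice by correlation favours and which are given without a test, were 0.31 for Eng, 1.34 for Tnfaip2 and 1.59 for Sox17. Vegfa was most like the lysosomal membrane gene Lamp2 (r = 0.97), Arhgap23 (0.96) and Lcat, which esterifies cholesterol in plasma (0.96), with log2 changes of 0.46, 0.76 and 1.19. Pgf was most like the cation channel gene Mcoln2 (r = 0.95), Dio2, which activates thyroid hormone (0.95), and Impg1 (0.95). Their log2 changes were 1.97, 1.87 and 0.40. Kdr was most like the scaffold gene Slc9a3r2 (r = 0.98), Zfp275 (0.95) and Atp6v0d1, a subunit of the vacuolar proton pump (0.95), with log2 changes of 0.77, 0.33 and 0.53.

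In the rest of the VEGF family no gene passed in either direction. For the counts at unadjusted p under 0.05 given with this and the later lists, the share over all 10406 probes was 6.74% higher and 8.5% lower. For the counts that passed, it was 1.11% higher and 0.231% lower. All lists were chosen with earlier results of these data known. Of 6 measured ligands and receptors other than the 4 genes, 0 rose and 0 fell in limma's test (0 higher and 1 lower at unadjusted p under 0.05), with a median log2 change of 0.00 against -0.14 over all probes. Vegfd, a ligand of lymphatic endothelium, had the largest difference, with contralateral intensities of 4.27, 2.64, 11.7 and 11.7 and stimulated intensities of 2.95, 1.30, 6.70 and 3.07 in mice 183, 197, 438 and 440. It was lower in 4 of 4 mice, opposite in sign to Vegfa and Pgf, but its log2 change of -1.07 ± 0.25 did not pass (adjusted p 0.0854). Vegfb, which binds FLT1, was also lower in 4 of 4 mice (-0.38 ± 0.18, adjusted p 0.341), and Vegfc was at 0.29 ± 0.24 (adjusted p 0.551). Among the receptors, Flt1, the receptor shared by VEGF-A and placental growth factor, was dim, from 0.0568 to 0.427 units, and changed by 0.27 ± 0.37 (adjusted p 0.731). Its change was 0.75 without mouse 438 and 0.06 without mouse 440. Nrp1, a co-receptor of VEGF-A (0.17 ± 0.22), and Flt4, the receptor of lymphatic vessels (-0.17 ± 0.20), did not pass either.

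Of 8 measured partners and regulators of HIF-1 alpha 0 passed in either direction, also at unadjusted p under 0.05, and the median log2 change was 0.02. Arnt, the partner subunit, changed by -0.04 ± 0.19 (adjusted p 0.946), and Arnt2 by 0.08 ± 0.30. Epas1, which encodes HIF-2 alpha, was dim, with 2 stimulated values under the floor, and stood at -0.17 ± 0.29. The prolyl hydroxylases that mark HIF alpha subunits for degradation were at 0.27 ± 0.17 for Egln3 and -0.19 ± 0.20 for Egln2. Vhl, which encodes the ubiquitin ligase subunit that reads this mark, was at 0.38 ± 0.24. Hif3a was at 0.21 ± 0.25 and Cited2, a competitor of HIF-1 alpha for its coactivators, at -0.57 ± 0.33, or -0.22 without mouse 197 and -0.90 without mouse 440. The signs of Epas1, Arnt, Arnt2 and Egln2 turned under some of the settings tried.

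Genes known as HIF targets did not move as 1 group. Among the 19 of them on the arrays 3 rose, 0 fell and 16 missed the threshold, with 5 higher and 2 lower at unadjusted p under 0.05, and the median log2 change was 0.08. The 3 were Bhlhe40, a transcriptional repressor (contralateral 1.88 to 7.49 units, stimulated 11.1 to 27.3, adjusted p 0.00367), the heme oxygenase Hmox1 (5.49 to 6.81 and 15.4 to 143, adjusted p 0.0348) and the hexokinase Hk2 (113 to 190 and 223 to 384, adjusted p 0.0142). In each the stimulated muscles lay above all contralateral ones. All 3 are also regulated outside the HIF pathway. Hilpda, a hypoxia-induced lipid droplet protein, was higher in 4 of 4 mice without passing (log2 change 1.27 ± 0.32, adjusted p 0.113), as was Hk1 (0.91 ± 0.31, adjusted p 0.223, with a change of 0.58 without mouse 440). Bnip3l, a mitophagy receptor, was at -0.52 ± 0.21 (adjusted p 0.285). Of 17 settings Bhlhe40 passed in 12, Hk2 in 8 and Hmox1 in 6. Hmox1 also missed with a pseudocount (adjusted p 0.0668), after quantile normalization (0.0513), after cyclic loess (0.0517), without the dimmest probes (0.0517) and without the intensity trend (0.0970). Without mouse 183 none of the 3 calls held (adjusted p 0.0534 for Bhlhe40, 0.170 for Hmox1 and 0.0994 for Hk2). Hk2 and Hmox1 also missed without mouse 197 (0.0556 and 0.0835) and Hk2 without mouse 438 (0.0689), and leaving out mouse 440 lowered the log2 change of Hmox1 from 2.48 to 1.74.

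**Figure D2:**
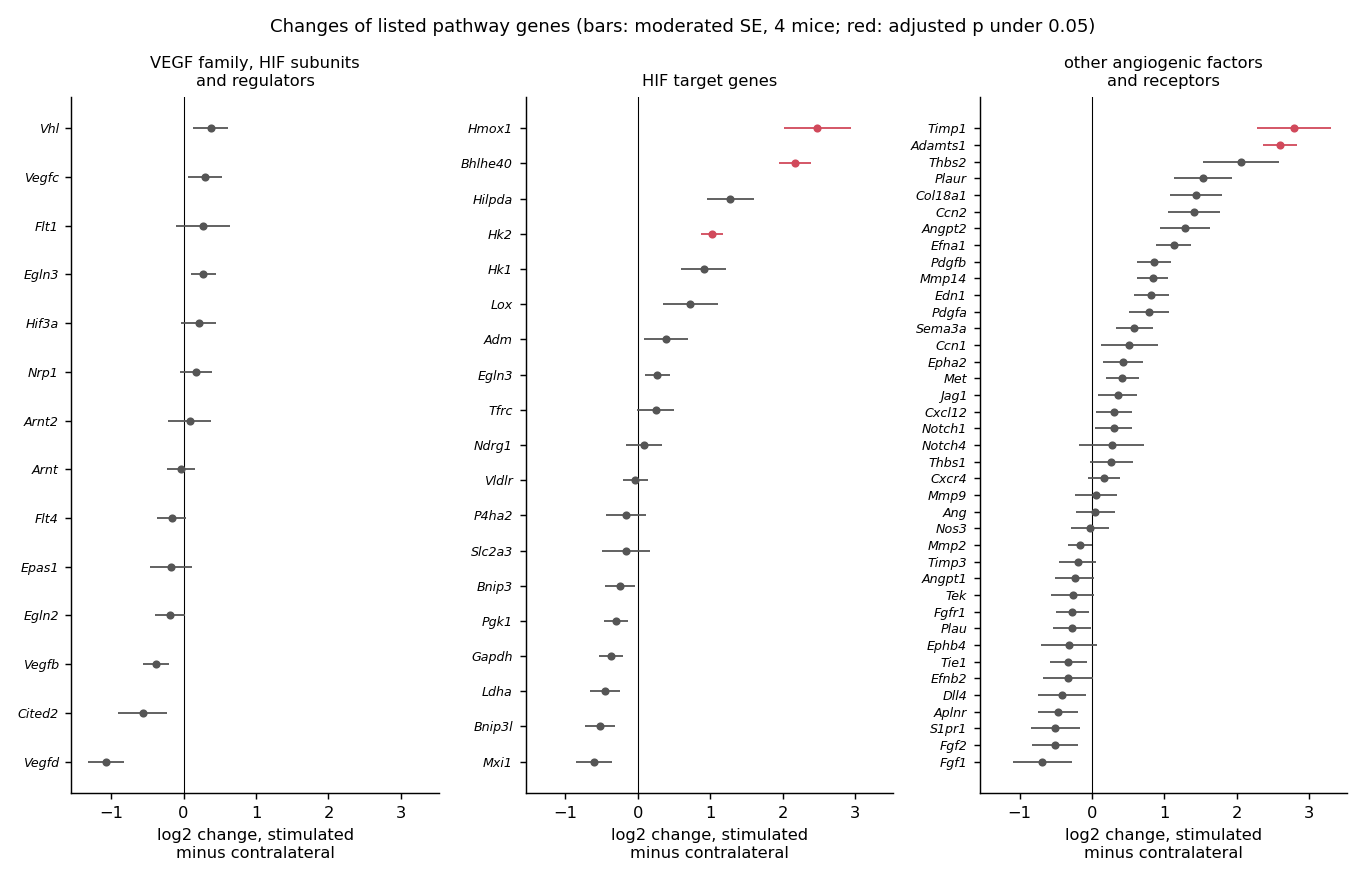
Log2 change (stimulated minus contralateral, points; bars are moderated SE, 4 mice except Gapdh with 3) of measured genes of the VEGF family and HIF regulators, of HIF targets and of other angiogenic factors. Red marks the genes past adjusted p 0.05 in limma's test over all 10406 probes: 0 in the left panel, 3 in the middle and 2 on the right.

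Among other angiogenic factors and receptors, 2 of 39 measured genes rose, 0 fell and 37 did not pass, where 1.11% of all probes were called higher. Of the 39, 13 were higher in every mouse and 0 were lower in every mouse, against 8.45% of probes with complete values that were higher in 4 of 4 mice. This list was chosen with earlier results of these data known, so its counts and median are a description. The median log2 change was 0.27 against -0.14 over all probes, and 13 were higher and 0 lower at unadjusted p under 0.05. The 2 were the secreted protease Adamts1, which sequesters VEGF-A (contralateral 0.632 to 1.25 units, stimulated 3.70 to 11.3, adjusted p 0.00243), and the metalloproteinase inhibitor Timp1 (0.468 to 1.18 and 1.01 to 33.6, adjusted p 0.0323). Thbs2, an anti-angiogenic matrix protein (2.05 ± 0.52, adjusted p 0.113), Col18a1, the precursor of endostatin (1.43 ± 0.36, adjusted p 0.111), the matricellular growth factor Ccn2 (1.41 ± 0.35, adjusted p 0.112) and the ephrin ligand Efna1 (1.13 ± 0.24, adjusted p 0.0653) missed the threshold, though each was higher in every mouse. Timp1 was at a log2 change of 2.05 without mouse 440 and 3.38 without mouse 438, and its call was lost without mouse 183 (adjusted p 0.170) or 197 (0.108). Without mouse 440, Efna1 (1.27, adjusted p 0.0306) and Thbs2 (2.57, adjusted p 0.0299) passed. Angpt2, the angiopoietin of vessel remodelling, was named after its values were seen; it was at 1.28 ± 0.35 (adjusted p 0.133), with 3.72 units in the stimulated muscle of mouse 440 and 0.723 to 1.36 in the other stimulated muscles.

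Of 3 measured regulators that induce Vegfa in muscle independently of HIF, 1 rose, 0 fell and 2 did not pass (1 higher and 0 lower at unadjusted p under 0.05). The coactivator Ppargc1a had 2.72, 2.21, 1.38 and 0.852 units in the contralateral muscles of mice 183, 197, 438 and 440 and 11.0, 13.4, 10.8 and 3.20 in the stimulated ones (log2 change 2.37 ± 0.23, adjusted p 0.0035). Its nuclear receptor partner Esrra (-0.20 ± 0.21) and the related Esrrg (-0.77 ± 0.37) did not pass. In mouse 440 Vegfa had its highest stimulated value and Ppargc1a its lowest, but Ppargc1a was also lowest in the contralateral muscle of that mouse. The log2 change of Ppargc1a was 1.91 in mouse 440 and 2.01 in mouse 183, the 2 mice with the higher Vegfa folds. It was larger, 2.60 in mouse 197 and 2.97 in mouse 438, in the 2 mice with the lower Vegfa folds. A relation between the 2 genes was not tested.

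Endothelial cells are the main site of Kdr expression. Of 12 measured markers 1 rose, Sox17, 0 fell and 11 did not pass (2 higher and 0 lower at unadjusted p under 0.05), with 6 positive and 6 negative changes and a median of -0.07. Sox17, Sox18 and Eng (0.31 ± 0.21, adjusted p 0.477) were higher in 4 of 4 mice, as Kdr was. Sox17 passed in 10 of 17 settings and missed without mouse 183 (adjusted p 0.126) or 438 (0.0753). The median change of the markers was -0.08, -0.04, 0.18 and 0.44 in mice 183, 197, 438 and 440, beside 0.80, 0.30, 0.50 and 0.89 for Kdr. Kdr was chosen with its change known, so the 2 are set side by side without a test. Sox18, an endothelial transcription factor, was at 0.65 ± 0.23 (adjusted p 0.243), the surface sialoprotein Emcn at 0.44 ± 0.26 (adjusted p 0.429) and the junction protein Cdh5 at -0.53 ± 0.33 (adjusted p 0.441). Cdh5 was near the floor, with 2 stimulated values below it. Pecam1, shown as a defining marker, had 1.64 to 3.80 units in contralateral and 1.75 to 2.11 in stimulated muscle (-0.22 ± 0.24). The summed level of the 12 markers was 26.5 to 43.8 units in contralateral and 23.6 to 48.1 in stimulated muscle. Tie1 and Tek belong to this list and to the angiogenic list.

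**Figure D3:**
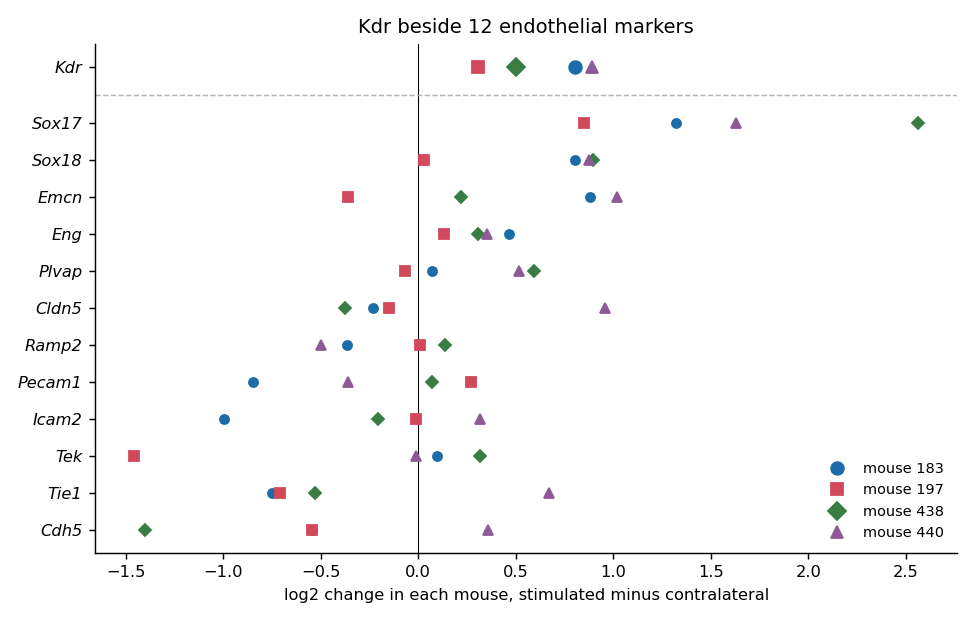
Log2 change in each mouse (stimulated minus contralateral, 1 symbol per mouse) of Kdr, above the dashed line, and of 12 endothelial markers. Kdr is positive in all 4 mice, as are Sox17, Sox18 and Eng, while the other markers have values on both sides of 0.

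Levels of other cell types that can make or answer these factors moved as follows, and their part in the differences of the 4 genes was not tested. Of 6 measured myeloid markers 0 passed (2 higher and 0 lower at unadjusted p under 0.05), and their summed level was 18.5 to 111.5 units in contralateral and 22.3 to 567.7 in stimulated muscle. The highest sum was in the stimulated muscle of mouse 440, where S100a8 had 417.7 units and Cd14, the endotoxin co-receptor, 115.6, against 6.45 to 15.2 for Cd14 in the other stimulated muscles. The defining leukocyte marker Ptprc was at 0.103 to 0.471 units in contralateral and 0.0426 to 1.08 in stimulated muscle, with 2 stimulated values below the floor. Cd14 (1.64 ± 0.40, adjusted p 0.102) and Fcgr3 (0.61 ± 0.21, adjusted p 0.231) had the smallest p. Of the 6 changes 4 were positive and 2 negative, Lyz2 (-0.26 ± 0.25) and Itgam (-0.14 ± 0.32), each higher in only 1 of 4 mice. The median was 0.35, and without mouse 440 it was -0.03, with 3 positive and 3 negative. Without mouse 440 the log2 changes were 2.17 for Hif1a, 1.79 for Pgf, 1.00 for Vegfa and 0.54 for Kdr, and without that mouse Cd14 passed (1.00, adjusted p 0.0259). Of 9 mural cell markers 0 passed (1 higher and 0 lower at unadjusted p), with 6 positive and 3 negative changes and a median of 0.11. Mcam (0.66 ± 0.25) and Acta2 (0.35 ± 0.18) had the smallest p, while Rgs5 (-0.42 ± 0.28), Myh11 (-0.35 ± 0.25) and Notch3 (-0.14 ± 0.29) were negative. Without mouse 440, 3 were positive and 6 negative, with a median of -0.12. The sums over the 9 markers were 35.5 to 61.1 units in contralateral and 41.9 to 71.0 in stimulated muscle. Of 6 fibroblast markers 0 passed (0 higher and 1 lower at unadjusted p), with 4 positive and 2 negative changes and a median of 0.05. Lum (-0.62 ± 0.22) and Col1a2 (0.26 ± 0.25) had the smallest p. The sums over the 6 markers were 53.5 to 235.2 units in contralateral and 54.0 to 233.7 in stimulated muscle. Most of each sum came from the bright genes Dcn (-0.06 ± 0.20) and Pdgfra (0.05 ± 0.22), so it says little about the others. All 8 fast fibre markers had negative changes, with a median of -0.49; 0 passed (0 higher and 6 lower at unadjusted p), and Tnni2 (-0.50 ± 0.15) and Ckm (-0.54 ± 0.16) had the smallest p. The size of these changes moved with the scaling, and the median of the 8 was -0.24 after cyclic loess. After quantile normalization it was -0.10, 1 of the 8 was positive, Tnni2 stood at 0.00 and Ckm at -0.23. Quantile normalization gives probes of equal rank equal values and so draws very bright probes such as these toward 0. That setting therefore cannot tell whether the markers differed between the legs. Their summed level was 7305 to 15170 units in contralateral and 4920 to 8933 in stimulated muscle.

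The 4 changes were positive in all 17 settings, as the plot by setting shows, but most settings could not turn a sign. No block, other floors, no dim probes, no trend, no moderation and complete probes returned the reported change of each gene. Leaving out mice could not turn a sign either, because each gene was higher in every mouse. Only the pseudocount, the normalizations and the choice of mice could move the size. Over 17 settings the log2 change ranged from 1.74 to 2.34 for Hif1a, from 1.26 to 2.00 for Pgf, from 1.00 to 1.41 for Vegfa and from 0.54 to 0.73 for Kdr. The lower end for Pgf is the pseudocount of 0.5 units; its other values lay between 1.79 and 2.00.

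**Figure D4:**
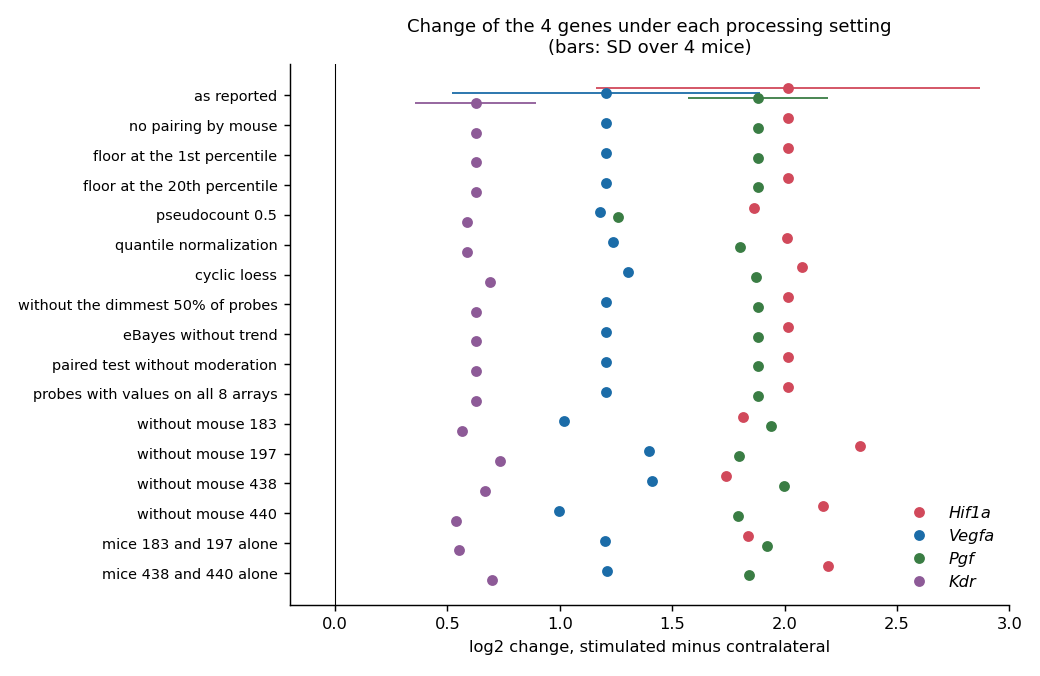
Log2 change (stimulated minus contralateral) of Hif1a, Vegfa, Pgf and Kdr as reported, with bars for the SD over 4 mice, and under 16 other settings. No point crosses 0, and apart from Pgf with a pseudocount each point lies within 1 SD of the reported value. Settings that changed only the test, the floor or the set of probes gave the reported value itself.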

How the data were processed

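The authors normalized the deposited intensities, which are linear, with 1 value for each probe on each of 8 one-colour CodeLink arrays hybridised with biotin-labelled cRNA, with 6 bacterial control mRNAs for scaling, per the labels' protocols. Background correction and the exact scaling are not given in the sources used here, and no further scaling was applied. Symbols were updated by Entrez identifier for all 6373 probes with 1 symbol (0 had several, 4127 none). Before log2, a floor of 0.0937 was set, which is the 5th percentile of the positive values. Values below it numbered 1387 on the stimulated array of mouse 183 and 619 on its contralateral array. On the other arrays they numbered 80 to 708. The 10406 probes with both muscles measured in at least 3 mice were fitted with limma 3.58.1 in R 4.3.3, blocking on the mouse and letting the prior variance follow intensity, and adjusted over all probes by Benjamini-Hochberg (two-sided, adjusted p 0.05). The ± after a log2 change is limma's moderated SE (median 0.26) unless an SD is named. Pairing rests on the titles, since both muscles come from 1 animal, and within a mouse the 2 muscles' deviations from their group means had correlations of 0.52 to 0.64. The 4 genes and all lists were chosen with earlier results of these data known. Named genes are the 4 genes, all measured VEGF family and HIF regulator genes, the 6 of smallest p among HIF targets and among other angiogenic factors, the 4 of smallest p among inducers and endothelial markers, the 2 of smallest p in each other marker list, and the 3 genes most like each of the 4. Alternatives were no block, other floors, a pseudocount, quantile and cyclic loess normalization, no dim probes, no trend, no moderation, complete probes, each mouse left out and each pair of mice alone. Precision is limited by the number of mice.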

Additional observations from a re-analysis of the deposited data

Results flagged for a closer look

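The check used log2 intensity after the floor. Within groups of 4 muscles, 1 value stood apart from the other 3 by more than Dixon's 95% critical value in 6 of 112 groups examined, and chance flags about 1 group in 20. None of the 6 was in Hif1a, Vegfa, Pgf or Kdr. Of these 6, 5 were in mouse 440. In its stimulated muscle Ppargc1a was low at 3.20 units (10.8 to 13.4 in the others), Dio2 was high at 9.52 (1.49 to 1.95), Arnt was high at 3.24 (2.30 to 2.34) and Cdh5 was high at 0.402 (0.0531 to 0.117). In its contralateral muscle Esrrg was high at 0.524 (0.131 to 0.163). The stimulated muscle of mouse 438 held Egln3 at 57.1 units (34.5 to 37.6 in the others). The Cdh5 flag rests on the floor, since 2 of its other stimulated values were below 0.0937 units and were raised to it.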

How the results depend on the processing

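The changes of Hif1a, Vegfa, Pgf and Kdr were positive in all 17 settings, though most of these could not turn a sign. Only Pgf moved by more than its SD over mice, to 1.26 with a pseudocount of 0.5. Leaving out 1 mouse gave 1.74 to 2.34 for Hif1a, 1.00 to 1.41 for Vegfa, 1.79 to 2.00 for Pgf and 0.54 to 0.73 for Kdr. Cyclic loess moved the median change of all probes from -0.14 to -0.01, and the 4 genes then stood at 2.08, 1.30, 1.87 and 0.69 for Hif1a, Vegfa, Pgf and Kdr, with Vegfa past the threshold in this setting alone. Counts of calls depended on the settings. As reported, 115 probes were higher and 24 lower, and 6 of 74 pathway list genes were higher and 0 lower (19 higher and 3 lower at unadjusted p under 0.05). Without the replicate block for mouse these were 1, 0 and 0 (477 probes at unadjusted p under 0.05), and after raising the floor to the 20th percentile, or with a paired test without moderation, all 3 were 0 (1296 and 1208 probes at unadjusted p). Without the intensity trend they were 45, 5 and 3. Within mice 183 and 197 all 3 were 0 (855 at unadjusted p), and within mice 438 and 440 they were 70, 9 and 6. Leaving out 1 mouse gave 7 to 149 higher and 0 to 27 lower probes and 2 to 8 higher list genes, each lowest without mouse 183. List genes lower stayed at 0 throughout. Of 821 values under alternatives of the 52 named genes other than these 4, 71 lost a call, 5 gained 1 and 0 reversed a called direction, and 7 genes that never passed changed sign in 15 values. The cause of these differences was not tested. Probe brightness limits Flt1, Epas1, Cdh5 and Ptprc, which had values below the floor. Other genes counted in the lists also had such values. These were Efnb2 with 4, Slc2a3 with 3, and Fgf2, Plau, Ephb4, S1pr1, Rgs5 and Itgam with 1 each. With 1 probe per list gene, the rule for choosing a probe changed nothing.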
